A study of Homo sapiens with 9 samples.

Results

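The DNA replication machinery was followed through 46 genes in HEK293 cells, a human embryonic kidney line that is readily transfected. The members were listed by symbol for their function, from origin licensing to deoxynucleotide supply, with earlier results of these data known; the rule itself uses no measured value. All 46 were found among the 54562 genes of the table. The cells were transfected with the empty vector (EV), with a plasmid for the ADARB1 isoform that skips the *Alu* exon (Short) or with a plasmid for the isoform that includes it (Long), and poly(A) RNA was sequenced 48 hours later. ADARB1 is an enzyme that edits adenosine to inosine in double-stranded RNA. The transfections were repeated in 3 cell passages, with 3 libraries per group and 9 in all. Replicates 1 to 3 are called passages 1 to 3 here, which assumes that libraries of the same number share a passage. All groups carried the endogenous ADARB1 gene, expression was transient in a pool that was not selected for transfected cells as far as the methods state, and the plasmids were built in pCMV6-AC, a vector with a cytomegalovirus promoter. HEK293 cells also carry the adenovirus E1A protein in all groups, which binds RB family proteins and frees E2F factors.

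Replication of a chromosome begins in G1, when the origin recognition complex (ORC), CDC6 and CDT1 load the MCM2-7 helicase ring onto origins. In S phase CDC45 and the GINS complex join MCM2-7 to form the active helicase, polymerase alpha-primase lays down primers, and polymerases epsilon and delta extend the leading and lagging strands while held by the PCNA clamp. Many of these genes are transcribed in a burst at the G1/S boundary through E2F sites in their promoters, and for that reason their mRNA is often read as a sign of S-phase entry. In RNA from a whole culture, fewer cells in S phase and less of an mRNA per cell cannot be told apart.

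Values are FPKM, the fragments of a gene per kilobase of its length, relative to all fragments mapped in that library, so levels can be compared between genes. Changes are differences of log2(FPKM + 1) from a limma fit of all 9 libraries with the passage as a block, given with their standard error (SE), and a gene was called when its Benjamini-Hochberg adjusted p over 13801 genes was under 0.05. These are the genes that averaged 1 FPKM or more over the 9 libraries. The added 1 FPKM makes the change of genes with low FPKM look smaller than it is. The summed FPKM of all genes ran from 517170 to 589535 over the libraries, and fragment counts were not analysed here, so the depth is unknown and no counting interval is given. ADARB1 itself stood at 7.66, 7.999 and 8.61 FPKM in EV, 1889, 4145 and 2735 in Short and 1695, 3449 and 2080 in Long, as the labels state. Of the markers listed for the line, VIM, KRT8, KRT18 and NEFM were expressed in all libraries (lowest value 48.6 FPKM), PAX2 was low (1.73 to 2.87), and PTPRC, ALB, CDH5, COL1A2 and HBB, which mark other cell types, reached at most 0.326. NEFL and LHX1 were not matched by symbol.

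The promoters of the 6 genes called in Long against EV are shown because the results below turn on them. They come from RefSeq on build GRCh38.p14, from 250 bases before to 30 bases after the transcription start, written 5′ to 3′ on the strand of the gene. Capitals mark an E2F word (TTTCGCGC, TTTGGCGC, TTTCCCGC or TTTGCCGC on either strand) or a CCAAT box on either strand, and neighbouring matches can overlap.
ORC3: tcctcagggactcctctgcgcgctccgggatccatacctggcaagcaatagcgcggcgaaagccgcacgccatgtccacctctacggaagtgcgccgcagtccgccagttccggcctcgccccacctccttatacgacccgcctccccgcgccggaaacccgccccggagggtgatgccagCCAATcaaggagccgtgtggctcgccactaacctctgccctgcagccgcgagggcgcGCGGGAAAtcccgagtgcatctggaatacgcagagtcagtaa
ORC4: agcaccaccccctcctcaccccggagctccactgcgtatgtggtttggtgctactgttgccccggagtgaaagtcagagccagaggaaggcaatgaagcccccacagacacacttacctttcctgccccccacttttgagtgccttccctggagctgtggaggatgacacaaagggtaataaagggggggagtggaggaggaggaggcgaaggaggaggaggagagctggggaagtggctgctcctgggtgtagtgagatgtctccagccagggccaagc
MCM2: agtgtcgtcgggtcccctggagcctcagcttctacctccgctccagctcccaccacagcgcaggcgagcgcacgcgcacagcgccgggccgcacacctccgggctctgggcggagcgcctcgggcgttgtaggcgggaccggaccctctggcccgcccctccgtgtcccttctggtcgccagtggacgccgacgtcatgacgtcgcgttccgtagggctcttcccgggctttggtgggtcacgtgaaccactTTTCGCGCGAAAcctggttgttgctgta
MCM7: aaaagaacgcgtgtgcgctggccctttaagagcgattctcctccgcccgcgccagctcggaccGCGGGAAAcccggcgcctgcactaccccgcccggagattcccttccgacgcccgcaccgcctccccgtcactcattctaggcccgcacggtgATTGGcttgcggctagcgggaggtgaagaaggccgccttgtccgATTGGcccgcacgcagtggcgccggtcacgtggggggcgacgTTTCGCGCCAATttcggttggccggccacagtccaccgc
RFC2: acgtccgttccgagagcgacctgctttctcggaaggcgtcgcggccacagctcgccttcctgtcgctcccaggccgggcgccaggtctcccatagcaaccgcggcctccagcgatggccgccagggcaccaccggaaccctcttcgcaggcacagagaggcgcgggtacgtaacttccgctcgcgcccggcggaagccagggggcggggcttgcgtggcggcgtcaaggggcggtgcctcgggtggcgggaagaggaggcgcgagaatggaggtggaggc
TOPBP1: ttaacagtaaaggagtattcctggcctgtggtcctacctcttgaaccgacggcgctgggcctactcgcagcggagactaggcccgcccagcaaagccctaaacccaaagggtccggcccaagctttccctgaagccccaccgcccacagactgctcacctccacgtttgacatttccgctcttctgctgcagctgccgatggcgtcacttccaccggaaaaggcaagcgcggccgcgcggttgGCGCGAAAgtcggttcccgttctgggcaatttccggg
The ORC3 promoter lies at chr6:87589885-87590164 (plus strand), ORC4 at chr2:148021522-148021801 (minus), MCM2 at chr3:127598161-127598440 (plus), MCM7 at chr7:100101368-100101647 (minus), RFC2 at chr7:74254370-74254649 (minus) and TOPBP1 at chr3:133661912-133662191 (minus). For ORC4 and MCM7 other starts are listed too, 2 and 3 in all. MCM2 and MCM7, which were higher in Long, hold an E2F word in this window, and so do ORC3 and TOPBP1, which were lower. RFC2, which was higher, and ORC4, which was lower, hold neither motif in it.

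RefSeq promoters were matched for 40 of the 46 genes, over the full window that ends 50 bases after the start. An E2F word was found in 21 of the 40 (52.5%), against 3.99% of the 27305 genes with a listed promoter and 6.66% of the 10216 with one that were tested here. The 21 include MCM2, MCM3, MCM6 and MCM7, the licensing factors CDC6 and CDT1, GINS1, GINS2 and GINS3, PCNA, POLA1, POLE, POLE2, TYMS and CLSPN. A CCAAT box was found in 24 of the 40 (60.0%), against 39.7% of all and 43.8% of the tested genes. The letters TTTGAA, the core of the cell cycle genes homology region of many mitotic promoters, were found in RRM1 alone (2.5% of the 40, against 18.2% and 13.5%). A match of letters is a description and not a bound site.

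All 46 genes were expressed in all 9 libraries, between 9.08 FPKM (POLE2 in Long, passage 2) and 235.4 FPKM (MCM7 in the same library), and all passed the filter on low values. In EV 44 of the 46 lay above 11.6 FPKM, the median of the 13815 genes at 1 FPKM or more, and the members sat at percentiles from 48.3 to 97.7 with a median of 83.3. The most abundant transcripts were MCM7, MCM4, PCNA and MCM3, and the least abundant were ORC1, PRIM2, ORC5 and POLE2. Within complexes the levels were uneven. The EV mean ran from 60.8 (MCM5) to 202.2 FPKM (MCM7) in MCM2-7, where the proteins form a ring with 1 copy of each, from 11.0 (ORC1) to 26.1 FPKM (ORC6) in ORC and from 11.0 (PRIM2) to 57.4 FPKM (POLA2) in polymerase alpha-primase. Among polymerases delta and epsilon it ran from 14.2 FPKM for POLE2 to 96.4 FPKM for POLD2, a 6.80-fold range. Across the 9 libraries the highest value of a member exceeded the lowest by 1.15 to 2.14 times, with a median of 1.28. Over all genes tested the median was 1.43, but these include genes at lower levels and were not matched to the members on level.

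**Figure D1:**
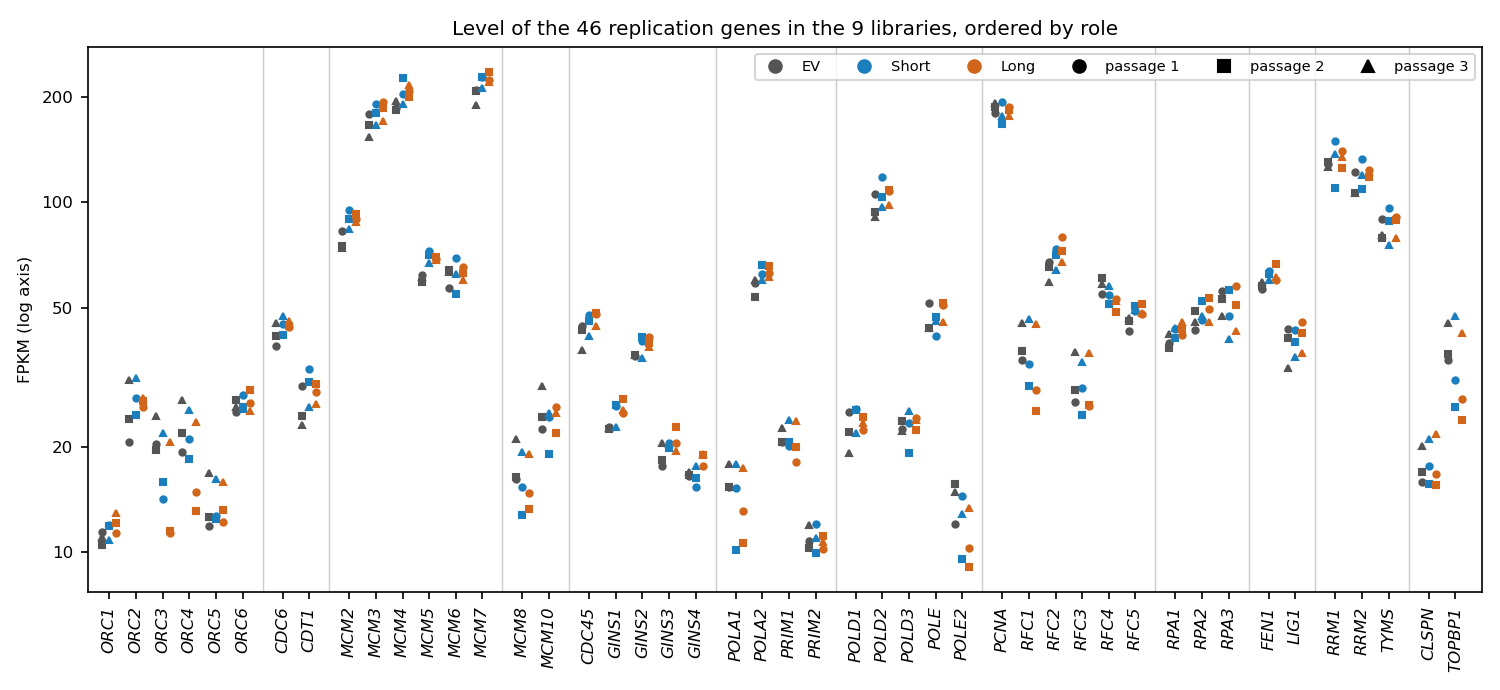
FPKM (log axis) of the 46 replication genes, ordered by role, with 1 point for each of the 9 libraries; colour gives the transfection and shape the passage. Levels run from ORC1, PRIM2 and POLE2 at the bottom to MCM7, MCM4 and PCNA at the top, and the spread of a gene over libraries is small beside the differences between genes.

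In Long against EV, 6 of the 46 genes passed the test (13.0%), against 8.32% of all genes tested. MCM2, MCM7 and RFC2 were higher and ORC3, ORC4 and TOPBP1 were lower. That is 3 higher beside 1.99% of all genes called higher, and 3 lower beside 6.33% called lower. The split depended on the scaling of the libraries. With the FPKM rescaled to the same sum (TPM) it was 0 higher and 6 lower, beside 9.27% of all genes called. With median-ratio scaling it was 1 higher and 4 lower, beside 8.98%. The split of all genes by direction was not counted with these scalings. At an unadjusted p under 0.05 there were 21 of 46 members, against 24.4% of all genes. The changes of the members ran from -0.58 (ORC3) to 0.22 (MCM2), 32 were positive, and their median was 0.09, against 0.04 over all genes tested. With TPM these medians were 0.01 and -0.03, and with median-ratio scaling 0.05 and 0.0043. In 12 members every Long library lay above every EV library (26.1%, against 10.5% of all genes), namely MCM2, MCM4, MCM5, MCM7, CDC45, GINS1, GINS2, GINS4, POLA2, RFC2, RFC5 and FEN1. RFC4, a clamp loader subunit, was the one member with every Long library below every EV library (2.17%, against 3.14%). The summed FPKM of every Long library (544460 to 567584) also lay above that of every EV library (517170 to 541348). These counts, and the statements on overlap of single genes below, use the FPKM as given and were not repeated with TPM. The limma calls of the members fell where those of all genes fell. Without passage 1 they numbered 0 (0.0145% of all genes), without passage 2 they numbered 0 (0.725%), and without passage 3 they numbered 4 (7.47%), namely ORC3, ORC4, TOPBP1 and RFC1, all lower. At an unadjusted p under 0.05 there were 20 members without passage 1 and 7 without passage 2. Without the replicate block 0 were called (0.0145% of all genes), with 6 members at an unadjusted p under 0.05, and with a correction for the GC content of the transcripts 1 was called (1.83%). The share of all genes at an unadjusted p under 0.05 was not counted for these refits, so their unadjusted counts have no background beside them.

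In Short against EV limma called 0 of the 46 genes, against 0.0362% of all genes tested (0.029% called higher and 0.00725% lower), with 10 members at an unadjusted p under 0.05 (22.0% of all genes). The lowest adjusted p of a member was 0.11. The changes ran from -0.31 for ORC3 to 0.21 for CDT1, 30 of 46 were positive, and the median was 0.04, as over all genes. With TPM both medians were negative, -0.04 for the members and -0.03 for all genes. MCM2, MCM5, MCM7, RFC5, POLA2 and FEN1 were higher in every Short library than in any EV library (6 of 46, 13.0%, against 10.9% of all genes), and no member was lower in every one, against 2.11%. Long and Short share the EV libraries as their control, so the 2 sets of changes are not independent of each other.

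Compared directly, Long and Short differed in 0 of the 46 genes by limma, against 0.00725% of all genes tested, and 3 members (ORC4, ORC3 and GINS4) had an unadjusted p under 0.05 (7.54% of all genes). ORC4 differed by -0.35 (SE 0.0963, adjusted p = 0.547), ORC3 by -0.27 (SE 0.101, adjusted p = 0.597) and GINS4, a GINS subunit, by 0.17 (SE 0.063, adjusted p = 0.597). The Long and Short libraries overlapped for every one of the 46 genes, while of all genes tested 1.92% were higher and 1.91% lower in every Long library. The genes called in Long against EV are therefore not shown to differ between the isoforms.

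**Figure D2:**
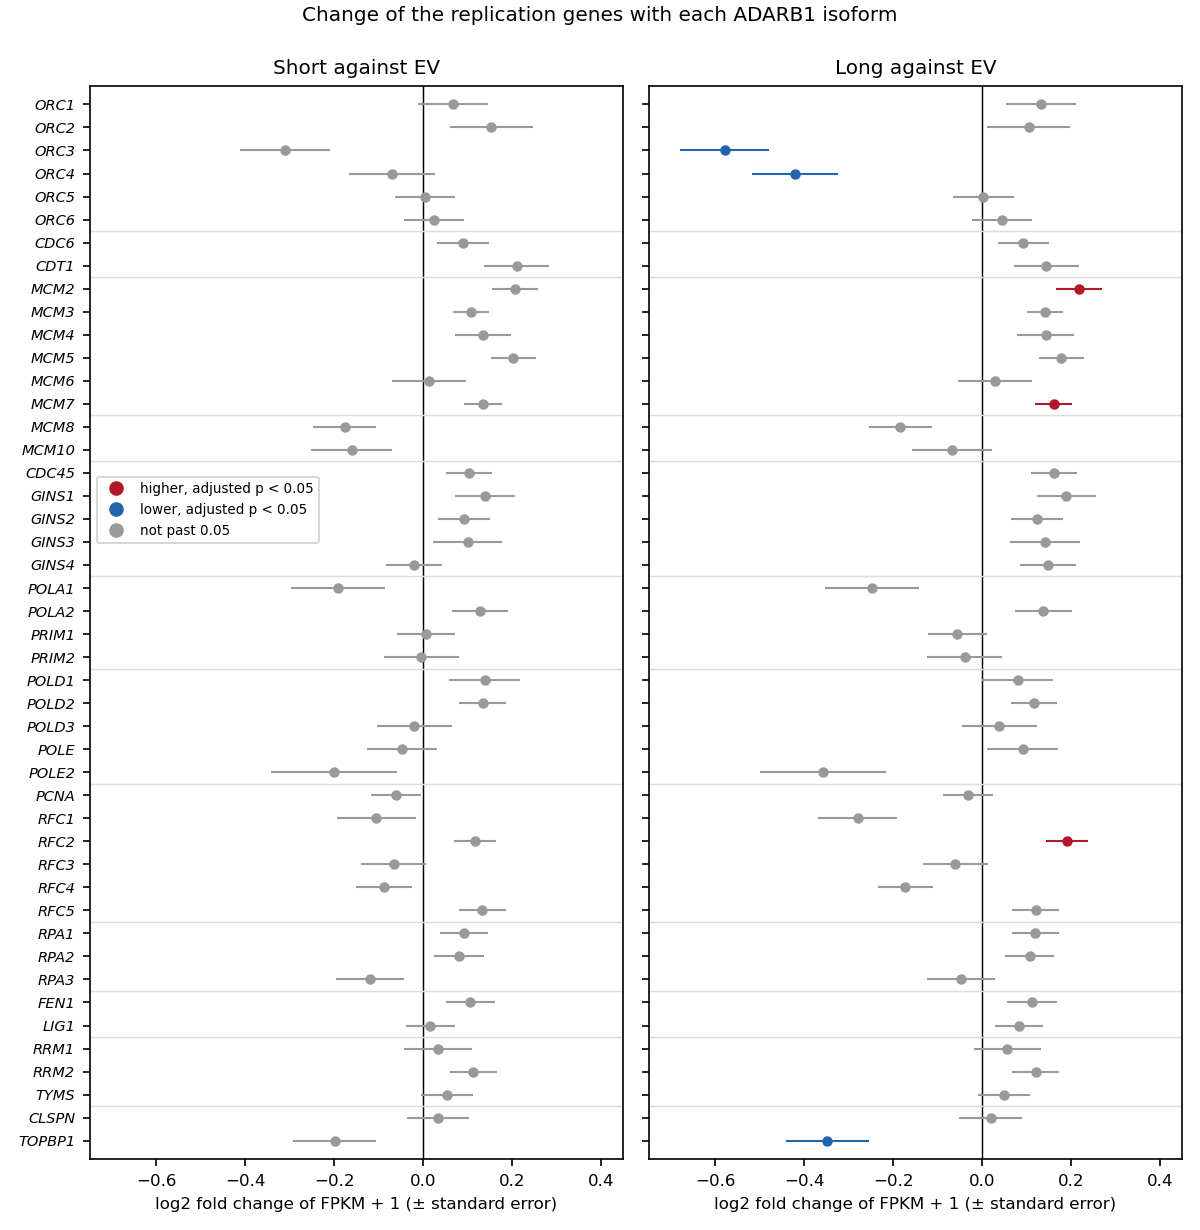
Change in log2(FPKM + 1) of each replication gene in Short against EV (left) and Long against EV (right), with bars of 1 standard error from the limma fit; red and blue mark genes past an adjusted p of 0.05. MCM2, MCM7 and RFC2 (higher) and ORC3, ORC4 and TOPBP1 (lower) are the coloured genes, all in Long against EV.

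The origin recognition complex, which marks replication origins and starts the loading of MCM2-7, held the 2 members that moved most in Long. ORC3 stood at 20.4, 19.6 and 24.4 FPKM in EV, 14.2, 15.9 and 21.9 in Short and 11.4, 11.5 and 20.7 in Long. ORC4, an ATP-binding subunit like ORC1 and ORC5, stood at 19.4, 21.9 and 27.2 FPKM in EV, 21.1, 18.5 and 25.5 in Short and 14.9, 13.1 and 23.5 in Long. Both fell in Long in every passage, and for both the third Long library lay within the range of the EV libraries, so the groups overlapped when passages were ignored. ORC3 changed by -0.58 (SE 0.101, adjusted p = 0.0109), with differences of -0.79, -0.73 and -0.23 in passages 1 to 3. ORC4 changed by -0.42 (SE 0.0963, adjusted p = 0.0258), with differences of -0.36, -0.70 and -0.20. In Short ORC3 was lower in all 3 passages but did not pass (-0.31, SE 0.101, adjusted p = 0.131), and ORC4 was lower in 2 of them (-0.07, SE 0.0963, adjusted p = 0.701). The other 4 subunits did not pass. They had positive values on the FPKM as given, while with TPM ORC5 and ORC6 were negative (2 of 6 subunits positive, median -0.05) and with median-ratio scaling ORC5 was (3 of 6 positive, median -0.01). ORC1, which carries the ATPase activity of the complex, stood at 11.4, 10.5 and 11.1 FPKM in EV, 12.0, 11.9 and 10.8 in Short and 11.4, 12.2 and 12.9 in Long. ORC6, the smallest subunit, stood at 25.2, 27.2 and 26.0 FPKM in EV, 28.2, 26.0 and 25.6 in Short and 26.6, 29.1 and 25.2 in Long. Neither gene separated the groups. ORC5 stood at 11.9, 12.6 and 16.9 FPKM in EV, 12.7, 12.4 and 16.2 in Short and 12.2, 13.2 and 15.9 in Long, highest in passage 3 of every group. ORC2 ranged from 20.6 to 31.4 FPKM over the libraries. Summed over the 6 subunits the level was 120.5 ± 14.5 FPKM in EV, 119 ± 11.4 in Short and 112 ± 12.7 in Long (SD, n = 3 each).

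CDC6 and CDT1 bring MCM2-7 to origins already bound by ORC. CDC6 stood at 38.8, 41.5 and 45.2 FPKM in EV, 44.7, 41.8 and 47.2 in Short and 43.9, 44.2 and 45.8 in Long. CDT1, whose protein is kept in check by geminin and by degradation in S phase, stood at 29.8, 24.5 and 23.1 FPKM in EV, 33.4, 30.6 and 26.0 in Short and 28.7, 30.2 and 26.6 in Long. CDT1 was higher in Short than in EV in all 3 passages (0.21, SE 0.0726, adjusted p = 0.141) without passing the test, and in Long it was higher in 2 of 3. Its libraries overlapped between groups, and the passage 3 library was the lowest of each group.

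The 6 subunits of MCM2-7, the ring that unwinds DNA ahead of the fork, all had positive values in Long and in Short on the FPKM as given, while MCM6 was negative in both with TPM and with median-ratio scaling. MCM2 stood at 82.7, 75.1 and 73.9 FPKM in EV, 94.8, 89.4 and 83.5 in Short and 89.6, 92.4 and 87.7 in Long. MCM7 stood at 209, 208 and 189.7 FPKM in EV, 227, 228 and 211 in Short and 223, 235 and 219.5 in Long. Every Long and every Short library of these 2 genes lay above all 3 EV libraries. MCM2 changed by 0.22 (SE 0.052, adjusted p = 0.0299) in Long, a 1.16-fold difference, and by 0.21 (SE 0.052, adjusted p = 0.11) in Short. MCM7 changed by 0.16 (SE 0.0424, adjusted p = 0.0439) in Long, a 1.12-fold difference, and by 0.14 (SE 0.0424, adjusted p = 0.124) in Short. MCM5 stood at 62.0, 59.0 and 61.3 FPKM in EV, 72.3, 70.8 and 67.2 in Short and 68.6, 69.5 and 68.4 in Long, again with no overlap between EV and the other groups. It missed the threshold in Long (0.18, SE 0.0505, adjusted p = 0.0576) and in Short (0.20, SE 0.0505, adjusted p = 0.11). MCM3 stood at 178, 166 and 154 FPKM in EV, 191, 180.1 and 166 in Short and 194, 185 and 170.3 in Long, with 0.14 (SE 0.0406, adjusted p = 0.0601) in Long. MCM4 ranged from 183.5 to 225.7 FPKM and MCM6 from 54.8 to 69.1 FPKM, neither past the threshold. Summed over the ring the level was 755 ± 19.5 FPKM in EV, 829 ± 42 in Short and 838 ± 14.5 in Long (SD, n = 3 each), so the Short and Long sums all exceeded the EV sums. The median change of the ring in Long was 0.15, which became 0.08 with TPM, 0.11 with median-ratio scaling and 0.09 with the correction for GC content. MCM8, which acts with MCM9 in recombination repair, and MCM10, which helps to activate the loaded helicase, are no part of the ring and had negative values. MCM8 stood at 16.2, 16.4 and 21.1 FPKM in EV, 15.4, 12.8 and 19.4 in Short and 14.8, 13.3 and 19.1 in Long, highest in passage 3 of every group. MCM10 ranged from 19.1 to 29.9 FPKM, and neither gene passed the test in Short or Long on the FPKM as given. With TPM MCM8 passed in Long (-0.255, adjusted p = 0.0457).

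CDC45 and the 4 GINS subunits turn MCM2-7 into the active helicase. In Long all 5 had positive values, from 0.12 to 0.19, and stayed positive with TPM (0.05 to 0.12), with median-ratio scaling and with the GC correction. On the FPKM as given 0 of the 5 passed the limma test, with 3 at an unadjusted p under 0.05, and with the GC correction 1 did (GINS1, 0.34, adjusted p = 0.0492). CDC45 stood at 44.1, 43.2 and 37.9 FPKM in EV, 47.7, 45.6 and 41.4 in Short and 47.8, 48.2 and 44.2 in Long. GINS2 stood at 36.4, 36.6 and 36.5 FPKM in EV, 40.1, 41.2 and 35.8 in Short and 41.1, 39.7 and 38.7 in Long. GINS4 stood at 16.5, 16.6 and 16.9 FPKM in EV, 15.4, 16.3 and 17.7 in Short and 17.7, 19.0 and 19.1 in Long. For these 3 genes the Long libraries lay above all EV libraries, while the Short libraries overlapped with EV. GINS1 ranged from 22.4 to 27.4 FPKM, also with no overlap between Long and EV, and GINS3 from 17.6 to 22.8 FPKM.

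Polymerase alpha-primase makes the RNA-DNA primers, and no subunit passed the test in Short or Long. POLA1, the catalytic subunit, stood at 15.4, 15.4 and 17.9 FPKM in EV, 15.2, 10.1 and 17.9 in Short and 13.1, 10.6 and 17.4 in Long. Its lowest values were the second Short and the second Long library. PRIM1, which carries the primase activity, stood at 20.7, 20.7 and 22.7 FPKM in EV, 20.1, 20.6 and 23.8 in Short and 18.1, 20.1 and 23.8 in Long, highest in passage 3 of every group. POLA2, the accessory subunit, ranged from 53.5 to 66.2 FPKM and was higher in every Short and Long library than in EV. PRIM2 ranged from 9.96 to 12.0 FPKM.

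Among the replicative polymerases the catalytic subunits changed little. POLD1, the catalytic subunit of polymerase delta, stood at 25.1, 22.1 and 19.2 FPKM in EV, 25.7, 25.4 and 21.9 in Short and 22.3, 24.3 and 23.4 in Long. POLE, that of polymerase epsilon, stood at 51.4, 43.7 and 43.7 FPKM in EV, 41.3, 46.9 and 45.8 in Short and 51.0, 51.5 and 45.4 in Long. Neither gene separated the groups. POLD2, an accessory subunit of polymerase delta, stood at 105, 93.6 and 90.4 FPKM in EV, 118, 103 and 97.0 in Short and 107, 108 and 98.2 in Long, lowest in passage 3 of every group. POLD3 ranged from 19.3 to 25.3 FPKM. POLE2, the second subunit of polymerase epsilon, stood at 12.1, 15.7 and 14.8 FPKM in EV, 14.4, 9.56 and 12.9 in Short and 10.3, 9.08 and 13.4 in Long. Its change in Long was the third largest among the members in size (-0.36, SE 0.142, adjusted p = 0.156), negative in all 3 passages, and did not pass the test. Without passage 2 it was -0.17. In Short POLE2 was higher than EV in passage 1 and lower in passages 2 and 3 (-0.20, SE 0.142, adjusted p = 0.427), and without passage 2 that change was positive (0.03).

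PCNA is the sliding clamp and RFC1 to RFC5 the loader that opens it. On the FPKM as given RFC2 alone of these 6 passed in Long; with TPM it did not (adjusted p = 0.171), and RFC1 and RFC4 did. RFC2 stood at 67.4, 65.3 and 59.2 FPKM in EV, 73.3, 70.8 and 64.1 in Short and 79.5, 72.7 and 67.5 in Long. In each passage EV was lowest, Short was next and Long was highest. It changed by 0.19 (SE 0.0476, adjusted p = 0.0351) in Long, a 1.14-fold difference, and by 0.12 (SE 0.0476, adjusted p = 0.194) in Short. RFC1, the large subunit, stood at 35.5, 37.5 and 45.1 FPKM in EV, 34.5, 29.9 and 46.3 in Short and 29.1, 25.3 and 44.9 in Long. It was lower in Long in all 3 passages but by almost nothing in passage 3 (-0.28, -0.55 and -0.01), and did not pass (-0.28, SE 0.089, adjusted p = 0.0852). It passed with TPM (-0.35, adjusted p = 0.0379), with median-ratio scaling (-0.32, adjusted p = 0.0482) and without passage 3 (-0.42, adjusted p = 0.0263). It was -0.14 without passage 2 (adjusted p = 0.576) and -0.21 with the GC correction (adjusted p = 0.163). PCNA, often used as a stain for S-phase cells, stood at 179, 187 and 192 FPKM in EV, 193, 167 and 176 in Short and 186, 183 and 176 in Long. Its groups overlapped and its change in Long was -0.03 (SE 0.0568, adjusted p = 0.783), with a sign that turned without passage 3 (0.01). RFC3 stood at 26.9, 29.1 and 37.3 FPKM in EV, 29.4, 24.6 and 35.0 in Short and 26.2, 26.4 and 37.1 in Long, highest in passage 3 of every group. RFC4 ranged from 48.6 to 60.6 FPKM, with -0.25 in Long with TPM (adjusted p = 0.0401), and RFC5 from 42.8 to 51.1 FPKM. The 5 loader subunits, which act as 1 complex, had values of both signs.

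Replication protein A coats single-stranded DNA, and FEN1 and LIG1 trim and seal Okazaki fragments. RPA1, the large subunit, stood at 39.6, 38.2 and 42.0 FPKM in EV, 43.3, 41.0 and 43.6 in Short and 41.9, 43.3 and 45.4 in Long. RPA3, the smallest, stood at 55.6, 52.7 and 47.4 FPKM in EV, 47.4, 56.0 and 40.6 in Short and 57.6, 51.0 and 42.9 in Long. RPA2 ranged from 43.1 to 53.3 FPKM. None of the 3 passed the test in Short or Long. FEN1 stood at 56.3, 57.4 and 59.1 FPKM in EV, 63.7, 62.5 and 60.0 in Short and 59.8, 66.3 and 61.0 in Long. LIG1 stood at 43.5, 41.0 and 33.5 FPKM in EV, 43.1, 39.8 and 36.0 in Short and 45.3, 42.3 and 37.2 in Long. FEN1 was higher in every Short and Long library than in EV, by little, and LIG1 overlapped between groups and was lowest in passage 3 of each.

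RRM1 and RRM2 form ribonucleotide reductase, the source of deoxynucleotides, and TYMS makes thymidylate. RRM1 stood at 128, 130.0 and 126 FPKM in EV, 149.8, 109.5 and 137 in Short and 140.3, 125 and 135 in Long. RRM2, whose transcript and protein peak in S phase, stood at 122, 106 and 106 FPKM in EV, 133, 109 and 119.8 in Short and 124, 118 and 122 in Long. TYMS stood at 89.5, 79.1 and 80.7 FPKM in EV, 96.1, 88.4 and 75.2 in Short and 90.5, 88.8 and 78.8 in Long. The second Short library had the lowest RRM1 value of the 9 and the first Short library the highest, and none of the 3 genes passed the test in Short or Long.

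CLSPN and TOPBP1 link stalled forks to the ATR kinase, and TOPBP1 is also needed to fire origins. TOPBP1 stood at 35.4, 36.8 and 45.1 FPKM in EV, 31.1, 26.0 and 47.2 in Short and 27.5, 23.9 and 42.2 in Long. It fell in Long in every passage, by 0.35, 0.60 and 0.09 on the log2 scale, although all 3 values of passage 3 lay above the EV values of the other passages. It changed by -0.35 (SE 0.0937, adjusted p = 0.0475) in Long and by -0.20 (SE 0.0937, adjusted p = 0.243) in Short. CLSPN stood at 15.8, 16.9 and 20.1 FPKM in EV, 17.6, 15.7 and 21.1 in Short and 16.7, 15.5 and 21.8 in Long. It did not separate the groups and was highest in passage 3 of each.

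**Figure D3:**
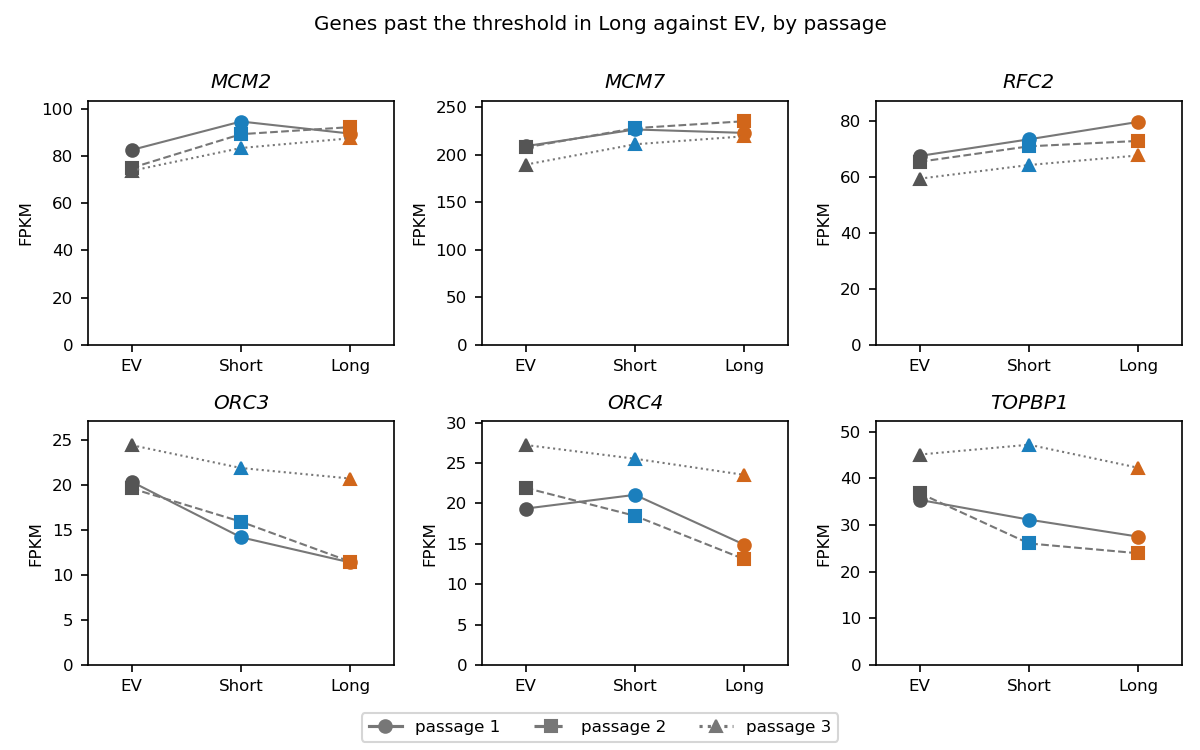
FPKM of the 6 replication genes past the threshold in Long against EV, from 0 on the vertical axis, with lines joining the 3 libraries of a passage. The upper genes (MCM2, MCM7, RFC2) lie a little higher in Long than in EV in each passage, and the lower genes (ORC3, ORC4, TOPBP1) lie lower in each passage, least in passage 3.

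The replication genes also varied between cell passages, about as often as other genes. An F test of limma between passages, with the transfection held constant, called 19 of the 46 (41.3%), against 36.4% of all genes tested. Of these, 10 were highest in passage 3 (background 16.5%), namely TOPBP1, MCM8, RFC1, RFC3, ORC5, ORC3, ORC4, CLSPN, POLA1 and PRIM1, and 9 were highest in passage 1 (background 15.3%), namely LIG1, MCM3, RFC2, RPA3, POLD2, TYMS, CDT1, CDC45 and RRM2. None was highest in passage 2, against 4.68% of all genes. TOPBP1 averaged 31.3, 28.9 and 44.8 FPKM over the 3 transfections of passages 1, 2 and 3 (adjusted p = 0.0015). RFC1 averaged 33.0, 30.9 and 45.4 FPKM (adjusted p = 0.00218), and MCM8 15.5, 14.2 and 19.8 FPKM (adjusted p = 0.00197). In the other direction LIG1 averaged 43.98, 41.0 and 35.6 FPKM (adjusted p = 0.0052). ORC3, ORC4 and TOPBP1, which were lower in Long, were among the genes higher in passage 3, and RFC2, which was higher in Long, was among those higher in passage 1. Without passage 3 limma called 0 of the 46, against 0.217% of all genes. At an unadjusted p under 0.05 there were 4 members, and the share of all genes at that cutoff was not counted. Without passage 1 it called 14 (31.5% of all genes), without passage 2 it called 18 (34.4%), and with the GC correction it called 13 (30.1%).

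**Figure D4:**
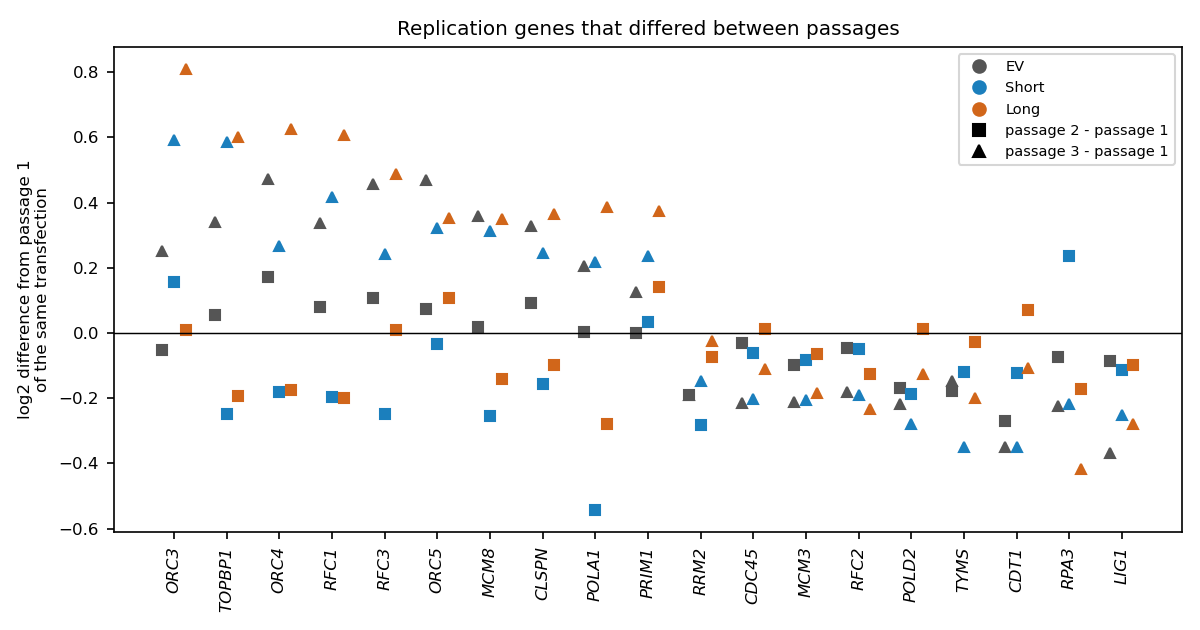
Difference in log2(FPKM + 1) of passages 2 (squares) and 3 (triangles) from passage 1 of the same transfection, for the 19 replication genes that differed between passages, ordered by the mean difference of passage 3. The 10 genes on the left have all 3 triangles above 0 and the 9 on the right have all 3 below 0.

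The changes in Long moved together with the GC content of the transcripts. The longest annotated transcripts of MCM2, MCM7 and RFC2 had a median GC content of 57.4% (52.6 to 57.6%), those of ORC3, ORC4 and TOPBP1 one of 39.3% (37.7 to 42.8%), and those of the other 40 genes one of 45.6%. Over the 46 genes, the Spearman correlation of GC content with the change in Long was 0.649, and 0.2, 0.640 and 0.689 within passages 1, 2 and 3, against 0.518 over the 13398 tested genes with a known sequence. For Short it was 0.579 over the 46 genes and 0.616 over all. The genes share their libraries, so these values are descriptions and carry no p. The difference of passage 3 from passage 1 went the other way, with -0.760 over the 46 genes and -0.462 over all, and the 10 genes highest in passage 3 had a median GC content of 41.4%, against 52.0% for the 9 highest in passage 1. The transcripts also differed in length, with a median of 6152 nt for the 3 lower and 3085 nt for the 3 higher genes. The correlation of length with the change in Long was -0.025 over the 46 and -0.192 over all genes. When each library was corrected for GC content, the count in Long fell from 6 to 1 (GINS1, 0.34, adjusted p = 0.0492), while over all genes it fell from 8.32% to 1.83%. The changes of the 6 genes kept their signs, at 0.14 for MCM2, 0.08 for MCM7, 0.12 for RFC2, -0.41 for ORC3, -0.19 for ORC4 and -0.31 for TOPBP1.

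Genes that work with the replication machinery but are not among the 46 were counted from lists by function. In Long against EV 1.99% of all genes tested were called higher and 6.33% lower, with a median change of 0.04. The calls of these lists use the FPKM as given, and none is reported with the GC correction or with a passage left out. Over all genes the share called was 8.32% as given, 1.83% with the GC correction and 0.0145% without passage 1. Of 16 genes of licensing control and origin firing, 0 were called higher and 4 lower in Long against EV (25.0% called), with a median of -0.04. The 4 were RIF1, which controls replication timing (-1.34, SE 0.199, adjusted p = 0.00889), CCNE2, a cyclin E (-0.47, SE 0.107, adjusted p = 0.0251), MTBP, an origin firing factor (-0.39, SE 0.0899, adjusted p = 0.0255), and CDC7, the kinase that phosphorylates MCM2-7 (-0.34, SE 0.0774, adjusted p = 0.0258). Of 18 genes of fork progression and fragment processing, 0 were higher and 3 lower (16.7% called), namely the kinase ATR (-0.74, SE 0.12, adjusted p = 0.00953), ATAD5, which unloads PCNA (-0.58, SE 0.112, adjusted p = 0.0144), and WDHD1, which ties the helicase to polymerase alpha (-0.52, SE 0.112, adjusted p = 0.0219). RIF1 had the largest of these changes, and its level was 16.4, 13.2 and 25.3 FPKM in EV, 6.42, 9.98 and 20.8 in Short and 3.65, 4.18 and 15.8 in Long. As for ORC3 and TOPBP1, the third Long library of RIF1 was well above the other 2. The transcripts of the lower genes of both lists had a GC content from 36.0% (MTBP) to 39.7% (ATR).

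Of 8 tested genes of chromatin assembly at the fork only SSRP1, a subunit of the histone chaperone FACT, was called, and it was higher (0.18, SE 0.0443, adjusted p = 0.0333). UHRF1 of that list was not matched by symbol. Of 11 other genes of nucleotide supply NME1, a nucleoside diphosphate kinase, was higher (0.21, SE 0.0462, adjusted p = 0.0238) and RRM2B, the ribonucleotide reductase subunit used outside S phase, was lower (-0.61, SE 0.0949, adjusted p = 0.00916). Of 15 genes of the E2F and RB family the E2F partner TFDP1 (0.18, SE 0.0465, adjusted p = 0.0444) and the E2F target MYBL2 (0.21, SE 0.0509, adjusted p = 0.0321) were higher, and RB1 was lower (-0.41, SE 0.0908, adjusted p = 0.0238). The median over that family was 0.06. The GC content of the transcripts was 35.1% for RRM2B and 37.1% for RB1, which were lower. It ran from 46.4% (TFDP1) to 60.5% (MYBL2) for the genes called higher in these lists.

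Mitotic genes, which are transcribed after S phase, gave the most calls of these lists. In Long 10 of 26 were lower and 0 higher, beside 6.33% and 1.99% of all genes, with a median over the list of -0.07. The 10 were CENPE, CENPF, TOP2A, HMMR, TTK, ECT2, KIF11, CDK1, MKI67 and KIF23. CENPF, a kinetochore protein, had one of the largest changes (-1.55, SE 0.244, adjusted p = 0.00916), with 38.7, 29.0 and 57.5 FPKM in EV, 11.9, 21.4 and 47.2 in Short and 7.87, 7.91 and 33.9 in Long. TOP2A, which untangles sister chromatids, stood at 117, 109 and 157 FPKM in EV, 66.7, 77.1 and 142 in Short and 51.4, 47.2 and 120.2 in Long (-0.92, SE 0.135, adjusted p = 0.00889). MKI67, the Ki-67 proliferation marker, stood at 73.2, 68.4 and 83.5 FPKM in EV, 65.0, 52.9 and 85.0 in Short and 47.4, 47.4 and 81.4 in Long (-0.39, SE 0.0986, adjusted p = 0.0368). For all 3 the third Long library was above at least 1 EV library, so the groups overlapped. The transcripts of the 10 lower genes had a GC content from 35.4% (CENPE) to 48.4% (MKI67). Another 10 of the 26 had positive values in Long, such as PLK1 (0.19, adjusted p = 0.0582) and CDC20 (0.16, adjusted p = 0.0779). In 4 of the 26 every Long library lay above every EV library (15.4%, against 10.5% of all genes). In 2 every Long library lay below (7.69%, against 3.14%). None of the genes of these 6 lists was called in Short against EV or in Long against Short, where 0.0362% and 0.00725% of all genes tested were called.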

How the data were processed

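RNA-seq of 9 libraries was used: HEK293 cells transfected with EV, Short or Long, with 3 libraries per group taken from the labels. The submitters' processing notes name TopHat (version 1.4.1), Cufflinks and build hg19, and the methods state mapping to Ensembl transcripts first and to the genome for the remaining reads. The authors deposited FPKM for Ensembl genes in 1 table, with a column for each library and no pooled columns. The program behind the FPKM, the Ensembl release and the use of strand in counting are not given in the sources used here. No column was without a sample. Of the 54562 genes, 27206 were at 0 in all libraries. FPKM is scaled to the mapped fragments of a library, so an abundant plasmid transcript would by itself lower all other values. The size of this effect was not tested, and the median change over all genes tested was 0.04 in Short and in Long.

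Gene names, GC content and length came from GENCODE version v44lift37 on GRCh37, which named 47578 identifiers (87.2%). All 46 replication genes had a name, a GC value and a length. From the FPKM, log2(FPKM + 1) was tested by limma 3.58.1 under R 4.3.3 (lmFit, then eBayes with its trend option) over the 13801 genes that averaged 1 FPKM or more. Terms were the 3 groups and, as a block, the replicate number, at a Benjamini-Hochberg adjusted p of 0.05. Passages were compared by an F test on the replicate terms of the same fit. The fit was tested on simulated data. The study's methods state repeats in 3 cell passages and test editing replicate by replicate. Neither they nor the labels state that libraries of the same number share a passage, which was assumed here. As a check of the pairing, deviations from the group means correlated at 0.552 on average between libraries of the same number (0.327 to 0.813, 9 pairs). Between different numbers the mean was -0.256 (-0.634 to 0.366, 18 pairs), so the ranges overlapped. Deviations cancel within each group, so a negative mean between different numbers largely follows from a positive one between the same numbers. The passage is a block, so p-values measure how unevenly the differences between transfections repeated over the 3 passages of 1 line. This spread is moderated by eBayes over all genes tested.

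Values in every library are given for members past the threshold in any test (at most 20), the 5 with the largest absolute change in each comparison and a set member of each role, and ranges for the rest. The other lists name their genes past the threshold, with ADARB1 as the check of the labels. The 46 members and all lists were chosen with earlier results of these data known. Alternatives were a pseudocount of 0.1, TPM, median-ratio scaling, no replicate block, only the groups compared, eBayes without a trend, no filter, a minimum mean of 5 FPKM, each replicate left out, and loess corrections (span 0.3) for GC content and for length. Promoter words were searched by exact match on both strands in the RefSeq promoters (GRCh38.p14), and a gene counted when any listed start held a match.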

Additional observations from a re-analysis of the deposited data

How the results depend on the processing

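Refitted changes were tallied for a chosen set of members and comparisons, not for all members, which gave 325. Of these, 266 kept their direction and side of the threshold, 49 no longer passed, 6 newly passed and 4 changed sign. Most of the set was not past the threshold at first, so most of those 266 were uncalled before and after. The 6 genes called in Long against EV kept their sign in that comparison. Members outside this set also moved in Long. MCM8 and RFC4 newly passed with TPM and GINS1 with the GC correction, while MCM6, ORC5 and ORC6 turned negative with TPM. Of the 13 alternatives, ORC3 passed in 8, ORC4 in 7, TOPBP1 in 5, MCM2 in 4, MCM7 in 3 and RFC2 in 2. The adjusted p ran from 0.00149 to 0.637 for ORC3 and from 0.021 to 0.637 for MCM2. The number of members called in Long against EV, 6, became 0 with no replicate block, 0 with no filter on low values, 1 with eBayes without a trend, 1 with the GC correction and the replicate block, 2 with only the groups compared, 0 to 4 with a replicate left out, and 8 (5 higher, 3 lower, with MCM3 and MCM5 added) with a minimum mean of 5 FPKM. Over all genes the share called in Long moved with it, from 8.32% to 0.0145% with no replicate block and 0.00366% with no filter. It was 4.68% without a trend, 1.83% with the GC correction, 5.45% with only the groups compared and 11.6% with the higher minimum. With a replicate left out it ran from 0.0145% to 7.47%. With no filter, 27356 genes were tested in place of 13801. The replicate block changed no call in Short against EV or Long against Short, where 0 members were called with and without it. The number called between passages, 19 (36.4% of all genes), became 13 with the GC correction (30.1%), 11 without a trend (33.1%) and 12 with no filter (10.5%). With a replicate left out it was 0 to 18 (0.217% to 34.4% of all genes). The median of the members in Long, 0.0874, became 0.0135 with TPM and 0.0489 with median-ratio scaling, and in Short it went from 0.0434 to -0.0386 and -0.0070. With a replicate left out, PCNA in Long (-0.0313) ran from -0.0752 to 0.0136 (without replicate 3), ORC4 in Short (-0.0701) from -0.163 to 0.013 (without replicate 2) and POLE2 in Short (-0.201) from -0.423 to 0.0266 (without replicate 2). With the GC correction ORC4 in Short was 0.0679. The cause of these shifts was not tested. Without fragment counts, the counting error of low genes such as PRIM2 and POLE2 is unknown, and 3 libraries per group limit which small changes can pass.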
